A study of Homo sapiens with 84 samples.

Results

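The genes described here are 35 genes of sterol and fatty acid synthesis, chosen by name from the 57964 genes of a count table. They comprise 18 enzymes of sterol synthesis, 5 genes that control the SREBP transcription factors, 3 genes of sterol transport and oxysterol formation, 8 enzymes of the fatty acid arm, and LPIN1, which encodes a phosphatidate phosphatase of glycerolipid synthesis. RNA came from NCI-H1373 and NCI-H647, established non-small cell lung cancer lines, each kept in the vehicle DMSO or in a PARP7 inhibitor for 6 or 24 h. The inhibitors were RBN-2397 at 10, 30 or 300 nM and RBN012337 at 3, 10 or 100 nM, with doses placed around each compound's inhibitory concentrations. The sample labels spell the first compound RBN012397, the design text RBN-2397. Line, time, compound and dose gave 28 groups of 3 libraries, 84 in all. The labels name no genetic change in any group, and neither labels nor design text tie a replicate to a culture or a day. The p-values below therefore reflect how far libraries of a group lay apart, which could be technical spread. PARP7 is a mono-ADP-ribosyltransferase. All 35 genes passed the filter on low counts in both lines.

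Cells make cholesterol from acetyl-CoA through the mevalonate pathway, which HMGCS1 and the kinases MVK and PMVK serve early, and FDPS, SQLE, LSS, CYP51A1, TM7SF2 and SC5D serve later. The genes of this pathway and of fatty acid synthesis are textbook targets of the SREBP factors, encoded by SREBF1 and SREBF2, which are released from the endoplasmic reticulum by SCAP and held there by INSIG1 and INSIG2. SREBP-2 acts mainly on sterol genes, SREBP-1c mainly on fatty acid genes and itself depends on liver X receptors, and 25-hydroxycholesterol, made by CH25H, binds the INSIG proteins.

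The promoters of 3 members called in NCI-H1373 at 24 h are shown: HMGCS1 and SC5D, lower than in DMSO, and SREBF1, higher. PMVK, which was also higher there and had a smaller adjusted p than SREBF1, is not shown. Each stretch holds 250 bases before and 30 after the RefSeq start on GRCh38.p14, read on the gene's strand. Capitals mark the motifs CACNCCAC, the core of an SREBP element, CCAAT, the NF-Y box, and CACGTG, the E-box, each searched on both strands.
HMGCS1, chr5:43313383-43313662, minus strand: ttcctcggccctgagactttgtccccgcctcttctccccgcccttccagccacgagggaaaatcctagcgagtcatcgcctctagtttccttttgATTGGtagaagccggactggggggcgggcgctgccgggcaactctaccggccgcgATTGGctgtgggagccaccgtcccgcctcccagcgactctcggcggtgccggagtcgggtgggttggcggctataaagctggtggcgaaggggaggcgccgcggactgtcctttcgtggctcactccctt
SC5D, chr11:121292521-121292800, plus strand: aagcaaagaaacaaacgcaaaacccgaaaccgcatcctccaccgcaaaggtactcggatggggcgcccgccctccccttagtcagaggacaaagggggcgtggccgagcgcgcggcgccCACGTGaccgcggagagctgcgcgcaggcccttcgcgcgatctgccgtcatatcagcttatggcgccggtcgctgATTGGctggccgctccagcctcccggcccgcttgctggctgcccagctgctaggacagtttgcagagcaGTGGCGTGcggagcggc
SREBF1, chr17:17836957-17837236, minus strand: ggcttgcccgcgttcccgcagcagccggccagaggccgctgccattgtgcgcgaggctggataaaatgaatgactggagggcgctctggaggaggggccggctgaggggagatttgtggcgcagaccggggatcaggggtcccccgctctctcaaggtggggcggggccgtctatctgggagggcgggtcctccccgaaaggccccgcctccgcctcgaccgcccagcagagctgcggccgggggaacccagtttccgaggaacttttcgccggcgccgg
The HMGCS1 stretch held 2 NF-Y boxes, both read on the other strand as ATTGG. The SC5D stretch held all 3 motifs, with the SREBP core just after the start. The SREBF1 stretch held none of these motifs. That result covers only the stretch shown and says nothing of any other start of SREBF1. The counts are per gene and do not separate transcripts by their start. RefSeq promoters of 300 bases (250 before and 50 after the start) were matched for 31 of the 35 members. CACNCCAC stood in 4 of these 31 (12.9%), INSIG1, SCD, SC5D and SREBF2, against 5.74% of all 27305 promoters. CCAAT stood in 18 (58.1%) against 35.7%, and CACGTG in 4 (12.9%) against 7.43%. All 4 promoters with the SREBP core also held an NF-Y box, so the pair stood in 4 of 31 (12.9%) against 1.86% of all promoters. These matches describe letters and were not tested.

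Library totals were 630855 to 5994444 counts for NCI-H1373 and 1769332 to 6938648 for NCI-H647. In NCI-H1373 depth went with the replicate number: 21 libraries, those of replicate 3 at 6 h and of replicates 2 and 3 at 24 h, held 630855 to 2011578 counts. The shallowest was the DMSO library of replicate 3 at 24 h. Levels are given as CPM, a gene's share of its library's counts after TMM scaling, and are compared only within a gene. CYP1B1, a target of the aryl hydrocarbon receptor that PARP7 restrains, was above every DMSO library in all 18 treated libraries at 24 h in each line. ISG15, an interferon-stimulated gene, was above every DMSO library in all 18 treated NCI-H1373 libraries at 24 h and in all but 1 of NCI-H647, where RBN012337 100 nM replicate 2 held 99.0 CPM against a DMSO maximum of 151. At 6 h it was not above DMSO in 2 and 4 of 18. For CYP1B1 at 6 h, 1 NCI-H1373 library labelled RBN-2397 300 nM (replicate 1) held 11.7 CPM against 14 to 18.7 in DMSO and a treated median of 314, and 6 of 18 treated NCI-H647 libraries were not above their DMSO range. Of the 6 epithelial markers, EPCAM held 246 to 515 CPM over all NCI-H1373 libraries. In NCI-H647 it held 0.339 to 6.58 CPM and CDH1 0 to 1.07, and KRT19 held 1.9 to 46.8, while the keratins KRT8 (145 to 730), KRT18 (139 to 1448) and KRT7 (26.9 to 1460) were present. The haematopoietic markers PTPRC, CD3E and CD14 stayed at or under 3.88 CPM.

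Some libraries stood apart in the lipid genes themselves. At RBN012337 100 nM and 24 h, replicates 1 and 2 of NCI-H1373 held 44.8 and 42 CPM of HMGCS1, whereas the other 15 treated libraries outside this group held 13 to 30.7. The same pair held 1.66 and 2.51 CPM of SREBF1 and no CH25H count. In NCI-H647, replicate 2 of that group held 39.8 CPM of SC5D and 3.5 of SREBF1, against 10.6 to 17.4 and 7.59 to 26.0 in the 15 others. The DMSO libraries also spread at 24 h: replicate 3 in NCI-H1373 and replicate 1 in NCI-H647 lay near the treated libraries for several members. Results are therefore given for all 6 treated groups and, where it matters, without RBN012337 100 nM or without single libraries. RBN012337 100 nM was singled out after its values near DMSO had been seen. Leaving it out therefore tends to widen differences from DMSO, and a call gained or kept that way adds no support.

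After 24 h in an inhibitor, the mean over the 6 treated groups differed from DMSO in 5 of 35 members in NCI-H1373 and in 6 of 35 in NCI-H647. Of all genes tested 12.1% and 4.98% did. The NCI-H1373 count includes CH25H, whose test is not used, so it does not show an excess over all genes. A call means an adjusted p under 0.05 from edgeR's quasi-likelihood test with Benjamini-Hochberg adjustment over all genes. In NCI-H1373 HMGCS1 and SC5D fell (6.02% of all genes did), and PMVK and SREBF1 rose (6.13% did). For treated groups against DMSO, fell and rose mean lower or higher than DMSO of the same time, not a change over time. The other call, CH25H, entered the test only through treated groups and had to differ from DMSO libraries with no count, so it is given as a description. In NCI-H647 SQLE, TM7SF2, SC5D and INSIG2 fell (2.72%), and FDPS and FASN rose (2.26%). SC5D, the sterol C5-desaturase near the end of the pathway, was the member called in both lines. In bulk RNA, fewer cells with a transcript and less of it per cell cannot be told apart. The median log2 change over the 35 members was 0.03 in NCI-H1373 and 0.04 in NCI-H647, against -0.01 and -0.02 over all genes tested. An unadjusted p under 0.05 was reached by 14 and 15 of the 35 members, beside 3337 of 12832 and 2965 of 14789 genes tested. Without RBN012337 100 nM, 8 members, CH25H included, were called in NCI-H1373 (16.7% of all genes) and the same 6 in NCI-H647 (6.67%). Of the 18 sterol enzymes 10 were negative in NCI-H1373 and 9 in NCI-H647, with median log2 changes of -0.06 and -0.16, whereas 7 of 8 fatty acid genes were positive in each line, with medians of 0.46 and 0.47.

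**Figure D1:**
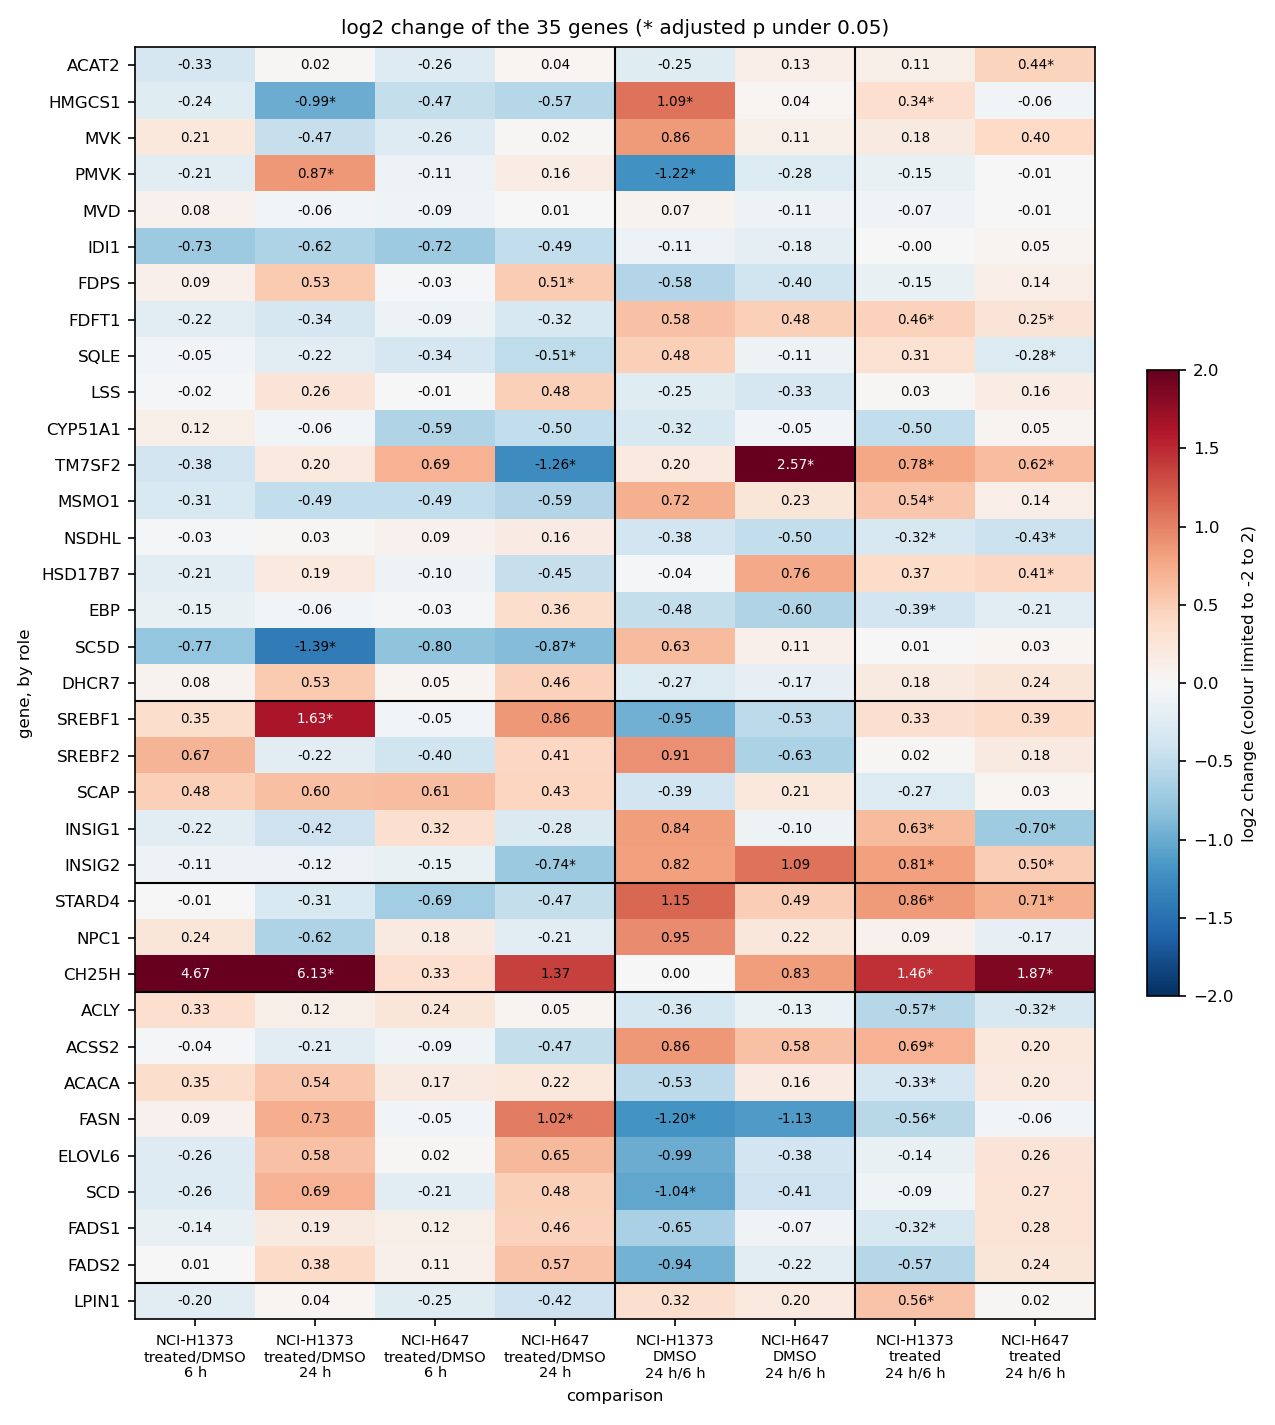
Heat map of the log2 change of each of the 35 genes (rows, ordered by role and divided by lines into sterol enzymes, SREBP control, transport and oxysterol, fatty acid arm and LPIN1) in 8 comparisons (columns): the mean of 6 treated groups against DMSO, DMSO at 24 h against 6 h, and treated at 24 h against 6 h, for each line. Red is higher and blue lower, the colour stops at 2 in either direction, an asterisk marks an adjusted p under 0.05, and SC5D is starred in both lines at 24 h (-1.39 and -0.87). The fitted values of CH25H in NCI-H1373 are set against DMSO libraries with no count and give no size.

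HMGCS1 (HMG-CoA synthase, which starts the mevalonate pathway, ENSG00000112972, chr5:43289395-43313512) had the smallest adjusted p of the members in NCI-H1373. Its level at 24 h was 60.0, 51.8 and 29.5 CPM in the DMSO replicates 1, 2 and 3 and 13 to 44.8 CPM, median 23.8, in 18 treated libraries. Of these, 15 lay under all 3 DMSO libraries, and the rest overlapped them. The log2 change was -0.99 ± 0.19 (SE, adjusted p = 0.00093), and -1.11 without RBN012337 100 nM. Without DMSO replicate 1 it was -0.80, with an adjusted p of 0.0756. In NCI-H647 the DMSO libraries held 13, 13.7 and 12.1 CPM, and 16 of 18 treated libraries lay under them (4.76 to 12.6, median 8.86). That log2 difference of -0.57 ± 0.25 did not pass the test (adjusted p = 0.186).

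The kinase PMVK (ENSG00000163344, chr1:154924734-154936991), which makes mevalonate diphosphate, rose in NCI-H1373. DMSO held 11.7, 15.9 and 19.1 CPM and the treated libraries 11.3 to 40.8, median 28.2. All but 2 treated libraries were above the DMSO range, 1 was below it, and the log2 change was 0.87 ± 0.25 (adjusted p = 0.0179). The call was lost without DMSO replicate 1 (0.64, adjusted p = 0.293) or replicate 2 (0.93, adjusted p = 0.0573). In NCI-H647 PMVK differed by 0.16 ± 0.20 (adjusted p = 0.725). The 2 neighbours in the pathway that act just before and after it, MVK and MVD, were not called in either line (-0.47 and -0.06 in NCI-H1373, 0.02 and 0.01 in NCI-H647).

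FDPS (farnesyl diphosphate synthase, ENSG00000160752, chr1:155308748-155320666), which feeds both sterols and protein prenylation, rose in NCI-H647. Its DMSO libraries held 134, 93.6 and 77.7 CPM and the treated ones 97.2 to 185, median 149. Of 18 treated libraries 14 were above all DMSO libraries, and replicate 1 of DMSO overlapped the treated range. FDPS changed by 0.51 ± 0.14 on the log2 scale (adjusted p = 0.0249). It fell short without DMSO replicate 2 (0.46, adjusted p = 0.144) or 3 (0.38, adjusted p = 0.238), and with no filter on low counts (adjusted p = 0.066). In NCI-H1373 the difference was of like size, 0.53 ± 0.19, with 14 of 18 above DMSO, and missed the threshold (adjusted p = 0.0602). Without RBN012337 100 nM it passed there (0.62, adjusted p = 0.0229). Reads of its 8 annotated pseudogenes came to 57 counts in all libraries against 40186 for FDPS.

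IDI1, the isomerase between MVD and FDPS, was lower in each line and time, by log2 differences of -0.73 and -0.62 in NCI-H1373 at 6 and 24 h and -0.72 and -0.49 in NCI-H647. None was called, with a smallest adjusted p of 0.141. FDFT1, the squalene synthase that commits farnesyl diphosphate to sterols, was under all DMSO libraries in 17 of 18 treated NCI-H647 libraries at 24 h. Its difference there was -0.32 ± 0.14 and was not called (adjusted p = 0.175). ACAT2, which makes the acetoacetyl-CoA that enters the pathway, differed by 0.02 and 0.04 at 24 h.

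Later in the pathway, SQLE (squalene epoxidase, ENSG00000104549), a rate-limiting step of sterol synthesis, fell in NCI-H647. DMSO held 45.1, 35.3 and 42.4 CPM and the treated libraries 21.3 to 37.4, median 28.1, with 16 of 18 under every DMSO library. SQLE changed by -0.51 ± 0.15 on the log2 scale (adjusted p = 0.0344). The call was lost in 9 of 21 fits that each left out 1 library, with adjusted p from 0.0504 to 0.167, among them each of the 3 DMSO libraries, and with no filter (adjusted p = 0.227). In NCI-H1373 the difference was -0.22 ± 0.24, with 9 treated libraries below and 5 above the DMSO range.

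TM7SF2 (ENSG00000149809, chr11:65111845-65116384), a sterol C14-reductase, was lower than in DMSO in NCI-H647 by 1.26 ± 0.31 on the log2 scale (adjusted p = 0.013). The levels were 6.18, 12.9 and 12.7 CPM in DMSO and 1.93 to 8.74, median 4.51, in the treated libraries. DMSO replicate 1 lay inside the treated range, and 16 of 18 treated libraries lay under it. Without DMSO replicate 2 the change was -1.05 (adjusted p = 0.169), and without replicate 3 it was -1.11 (adjusted p = 0.1). The gene overlaps VPS51 on the same strand and held 1056 counts in all, so its reads are uncertain. In NCI-H1373 it stayed at 0 to 10.8 CPM at 24 h, with no call (0.20 ± 0.54).

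SC5D (ENSG00000109929, chr11:121292453-121308694), whose promoter is shown above, fell in both lines. In NCI-H1373 the DMSO libraries held 26.9, 25.6 and 6.94 CPM and the treated libraries 3.85 to 24.2, median 7.55. The third DMSO value rests on 4 counts and sits inside the treated range, and 8 treated libraries lay under it. The log2 change was -1.39 ± 0.31 (adjusted p = 0.00297), -1.55 without RBN012337 100 nM, and -1.17 without DMSO replicate 1 (adjusted p = 0.12). In NCI-H647 the DMSO libraries held 14.8, 34.5 and 30.9 CPM and the treated ones 7.87 to 39.8, median 13.8. Here 13 of 18 were under all DMSO libraries, and 1, of RBN012337 100 nM, was above them. The log2 change was -0.87 ± 0.27 (adjusted p = 0.0474). That call was lost in 19 of 21 fits that left out 1 library (adjusted p 0.0518 to 0.391), and was kept without RBN012337 100 nM (-0.97, adjusted p = 0.0245).

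The remaining sterol enzymes were not called for the 24 h treated mean in either line. MSMO1, the C4-methyl oxidase, was lower in both (-0.49 and -0.59), and passed the test in NCI-H1373 without RBN012337 100 nM (-0.56, adjusted p = 0.0457). LSS, DHCR7, NSDHL, EBP and HSD17B7 ranged from -0.45 to 0.53. DHCR7, which makes cholesterol from its direct precursor, was above all DMSO libraries in 14 and 13 of 18 treated libraries, with differences of 0.53 and 0.46. HSD17B7 shares sequence with 2 pseudogenes that held 434 counts against 2633, so its values are uncertain. The same holds for ACAT2 and MVK, which overlap TCP1 and MMAB on the opposite strand, and for NPC1, which overlaps RMC1.

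CYP51A1, the lanosterol demethylase, could not be read in the same way in every library. It was listed at 0 in 9 libraries, 8 of NCI-H1373 and 1 of NCI-H647, among them the DMSO replicate 3 of NCI-H1373 at both times. In these 9, its neighbour on chromosome 7, LRRD1, held 32.1 to 95.4 CPM. In the other 75, LRRD1 held 0.726 to 10.6 CPM and CYP51A1 17.6 to 58.0. The 2 genes' summed level was 32.1 to 95.4 CPM in the first set and 19.7 to 62.4 in the second. With the counts summed, the same numbers of members were called in each treated mean, and the reason for the zeros was not tested.

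**Figure D2:**
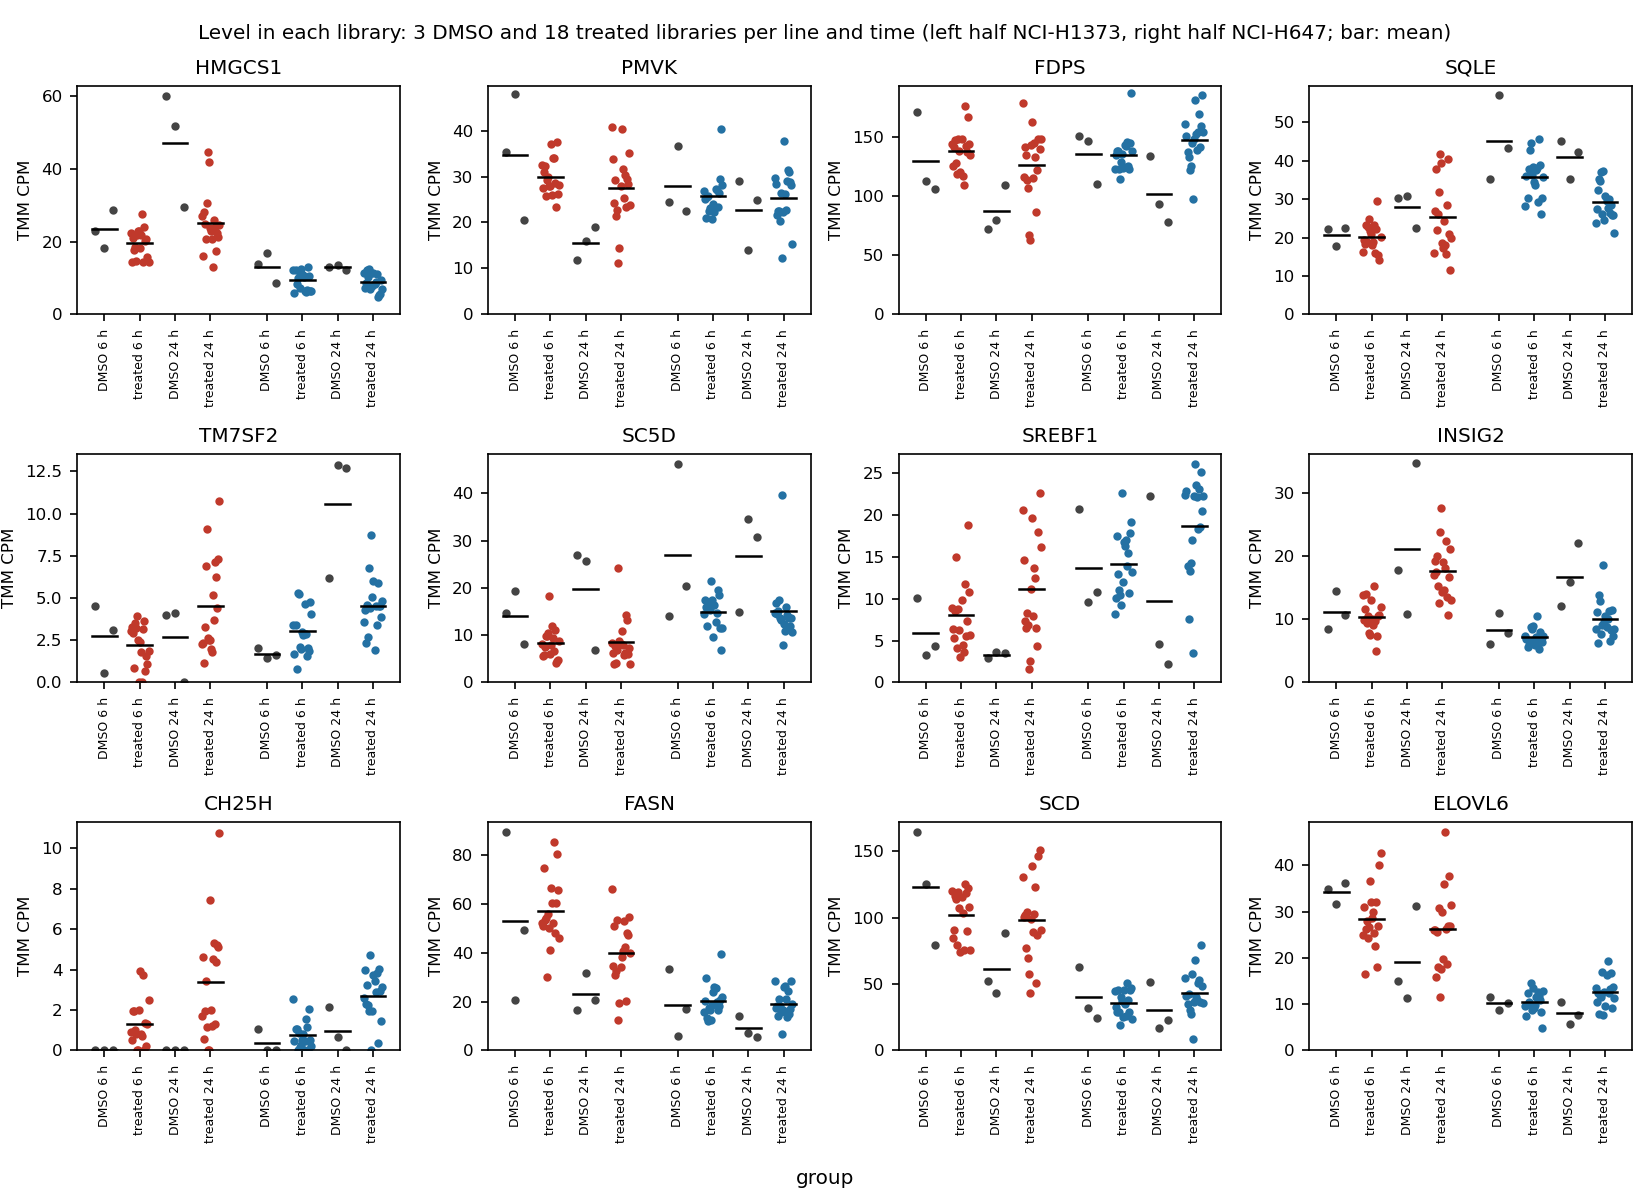
Level (CPM, linear axis) of 12 members in each library: within a panel the left 4 columns are NCI-H1373 and the right 4 NCI-H647, each with 3 DMSO libraries and 18 treated libraries at 6 and at 24 h, and the bar is the mean. The DMSO points at 24 h overlap the treated ones for SC5D, FDPS and SREBF1 in NCI-H647, and CH25H is at 0 in all 6 DMSO libraries of NCI-H1373.

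Among the genes that control SREBP, SREBF1 (ENSG00000072310, chr17:17810399-17837002) rose in NCI-H1373. DMSO held 2.93, 3.59 and 3.47 CPM, from 11, 7 and 2 counts, and the treated libraries 1.66 to 22.6, median 9.75. All but 2 treated libraries were above DMSO, and those 2 were replicates 1 and 2 of RBN012337 100 nM. The log2 change was 1.63 ± 0.52 (adjusted p = 0.0352) and 1.85 without that group (adjusted p = 0.0135). It did not pass without DMSO replicate 1 (1.48, adjusted p = 0.283) or 2 (1.71, adjusted p = 0.104). In NCI-H647 DMSO replicate 1 held 22.3 CPM and replicates 2 and 3 held 4.62 and 2.20, against 3.5 to 26.0 in treated libraries. With so wide a DMSO range, 7 of 18 were above it and the difference of 0.86 ± 0.39 was not called (adjusted p = 0.211). SREBF1 overlaps RAI1 on the opposite strand, and whether counting used strand is not given in the sources used here.

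INSIG2 (ENSG00000125629, chr2:118088452-118110997), which retains SCAP in the endoplasmic reticulum, fell in NCI-H647. It held 12.1, 15.9 and 22.0 CPM in DMSO and 6.19 to 18.6, median 9.39, in treated libraries, 15 of which lay under DMSO. INSIG2 changed by -0.74 ± 0.22 on the log2 scale (adjusted p = 0.0424), lost in 14 of 21 fits without 1 library (adjusted p 0.0551 to 0.368) and with no filter (adjusted p = 0.142). INSIG1, SREBF2 and SCAP were not called. SCAP was above every DMSO library in 16 of 18 treated libraries of NCI-H1373 and 14 of 18 of NCI-H647, with differences of 0.60 ± 0.29 and 0.43 ± 0.24 (adjusted p = 0.176 and 0.325).

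CH25H (cholesterol 25-hydroxylase, ENSG00000138135, chr10:89205629-89207314) had no count in the 6 DMSO libraries of NCI-H1373. The treated libraries held 79 counts at 6 h, in 15 of 18 libraries, and 138 at 24 h, in 16 of 18. Set against a chosen floor of 3 counts over the DMSO group, the pooled treated level was 3.45 times the floor at 6 h and 6.61 times at 24 h. That floor does not cover the spread between libraries, so these ratios are not lower bounds. The range at 24 h was 0 to 10.8 CPM, median 2.73. CH25H passed the filter on low counts only through treated groups, so these levels are a description and its test against DMSO in this line is not used. In NCI-H647, DMSO held 8 counts at 6 h and 11 at 24 h, and the treated libraries 57 and 204. At 24 h 13 of 18 were above DMSO, and the log2 difference of 1.37 ± 0.76 was not called (adjusted p = 0.315). NPC1, which exports cholesterol from lysosomes, and STARD4, a sterol carrier, were not called at 24 h (-0.62 and -0.31 in NCI-H1373, -0.21 and -0.47 in NCI-H647).

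In the fatty acid arm, FASN (fatty acid synthase, ENSG00000169710, chr17:82078333-82098332) rose in NCI-H647. DMSO held 14.2, 7.27 and 5.51 CPM and the treated libraries 6.55 to 28.5, median 18.1, with 15 of 18 above all DMSO libraries. The lowest treated library was replicate 2 of RBN012337 100 nM. The log2 change was 1.02 ± 0.31 (adjusted p = 0.0446) and 1.13 without that group (adjusted p = 0.0227). The call was lost in 11 of 21 fits without 1 library (adjusted p 0.0509 to 0.255), among them DMSO replicates 2 and 3. In NCI-H1373 DMSO held 16.5, 31.8 and 20.8 CPM and treated libraries 12.6 to 65.9, median 40.4. There 14 of 18 were above DMSO, and the difference of 0.73 ± 0.32 was not called (adjusted p = 0.135).

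The desaturase SCD in NCI-H1373 held 52.5, 43.1 and 88.5 CPM in DMSO and 43.2 to 151, median 99.8, in treated libraries, a difference of 0.69 ± 0.25 (adjusted p = 0.0666). It passed without RBN012337 100 nM (0.79, adjusted p = 0.0283). ELOVL6, which elongates palmitate, differed by 0.58 and 0.65, the carboxylase ACACA by 0.54 and 0.22, and the desaturases FADS1 and FADS2 by 0.19 and 0.38 in NCI-H1373 and 0.46 and 0.57 in NCI-H647. ACLY, which makes cytosolic acetyl-CoA from citrate, differed by 0.12 and 0.05. None of these passed the test. ACSS2, which makes acetyl-CoA from acetate, was the 1 negative member of the arm in each line (-0.21 and -0.47). LPIN1 differed by 0.04 and -0.42, with 16 of 18 treated NCI-H647 libraries under DMSO (adjusted p = 0.108). FADS1 and FADS2 overlap each other, FADS2 also overlaps FEN1, and ACSS2 overlaps GGT7, so these values are uncertain without strand.

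Some of the epithelial markers moved in the same comparison. In NCI-H1373 at 24 h KRT8, KRT18, KRT19, KRT7 and EPCAM rose (log2 0.79, 1.46, 1.12, 1.52 and 0.39), 5 of 6 markers, and CDH1 differed by -0.66 (adjusted p = 0.0837). In NCI-H647 KRT7 rose by 2.13, and its DMSO replicates held 287, 26.9 and 68.9 CPM. KRT8, KRT18, KRT19 and EPCAM were not called there (0.57, 0.74, 0.80 and -0.46, adjusted p = 0.293, 0.182, 0.635 and 0.601). CDH1 did not pass the filter on low counts in NCI-H647. Of the endothelial markers PECAM1 rose there by 1.65, from 0.618 to 1.65 CPM in DMSO to 2.57 to 5.76 in treated libraries, CDH5 was not called, and VWF stayed at or under 0.184 CPM. The part of these shifts in the lipid gene results was not tested. Mitochondrial transcripts made up 5.76 to 8.30% of counts in NCI-H1373 and 2.71 to 4.27% in NCI-H647.

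At 6 h no member was called in either line, against 1.16% of all genes tested in NCI-H1373 and 0.0135% in NCI-H647. An unadjusted p under 0.05 was reached by 3 and 4 of the 35 members, beside 1904 of 12832 and 1302 of 14789 genes tested. Without RBN012337 100 nM there was again no call in NCI-H1373 (3.16% of all genes) or NCI-H647 (0.0135%). SC5D and IDI1 had the lowest values among the sterol enzymes: SC5D differed by -0.77 ± 0.32 and -0.80 ± 0.28, with adjusted p of 0.227 and 0.349. IDI1 lay under all DMSO libraries in 15 of 18 treated NCI-H1373 libraries (9.01 to 45.6 CPM against 34.8, 48.9 and 33.7) and in 14 of 18 of NCI-H647. Of the 18 sterol enzymes 13 were negative in NCI-H1373 (median -0.18) and 15 in NCI-H647 (median -0.11), beside medians over all genes of 0.01 and -0.00. The fatty acid genes were split, 4 of 8 and 5 of 8 positive, with medians of -0.02 and 0.06. The change of response from 6 to 24 h was called for no member, at 0.53% of all genes in NCI-H1373 and 0% in NCI-H647. Nearest to the threshold was PMVK in NCI-H1373, whose response was 1.07 ± 0.32 higher at 24 h (adjusted p = 0.0933).

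Between 6 and 24 h the DMSO libraries themselves moved in NCI-H1373. Of the 35 members 4 were called, beside 9.12% of all genes (3.66% higher and 5.46% lower). HMGCS1 rose by 1.09 ± 0.27 (adjusted p = 0.0109), from 23.0, 18.3 and 28.7 CPM at 6 h. PMVK fell by 1.22 ± 0.30 (adjusted p = 0.00989), FASN fell by 1.2 ± 0.39 (adjusted p = 0.0459) and SCD fell by 1.04 ± 0.31 (adjusted p = 0.0306). The treated means of these 4 at 24 h differed from DMSO with the opposite sign (-0.99, 0.87, 0.73 and 0.69), and both comparisons share the 24 h DMSO libraries. In the treated libraries of NCI-H1373, where 35.1% of all genes differed between times (17.2% higher and 17.9% lower), HMGCS1 rose by 0.34 ± 0.11 and FASN fell by 0.56 ± 0.15, while PMVK and SCD differed by -0.15 and -0.09. There 16 members were called, 10 higher and 6 lower, among them INSIG1, INSIG2, STARD4 and MSMO1 higher and ACLY, EBP and NSDHL lower. Of the 8 fatty acid genes 7 were negative over time in DMSO (median -0.80). Each of the 4 DMSO calls was lost without at least 1 library: HMGCS1 without 24 h replicate 1 (0.90, adjusted p = 0.116) or 6 h replicate 1 or 2 (adjusted p = 0.0525 and 0.0553), and PMVK without 24 h replicate 1 (-0.99, adjusted p = 0.125) or 6 h replicate 2 (-0.91, adjusted p = 0.0733). SCD was lost without replicate 1 or 2 of either time (adjusted p 0.0777 to 0.186), and FASN without any DMSO library except 6 h replicate 2 (adjusted p 0.0524 to 0.418).

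In NCI-H647 the time in DMSO moved TM7SF2 alone among the members, at 0.284% of all genes. It held 2.03, 1.47 and 1.61 CPM at 6 h and rose by 2.57 ± 0.50 (adjusted p = 0.0169). The call was lost without 24 h replicate 2 (2.36, adjusted p = 0.106) or 3 (2.42, adjusted p = 0.0552) or 6 h replicate 3 (2.50, adjusted p = 0.0922). In the treated libraries TM7SF2 rose by 0.62 ± 0.20, and 11 members were called, 7 higher and 4 lower, beside 13.7% of all genes (6.94% and 6.73%). The difference of its response between times, -1.95 ± 0.54, was not called (adjusted p = 0.475). STARD4, INSIG2, FDFT1 and TM7SF2 were higher at 24 h in treated libraries of both lines, and ACLY and NSDHL were lower in both.

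The lines differed in DMSO in 14 of 35 members at 6 h and 13 at 24 h, beside 33.4% and 29% of all genes. Of all genes 15.6% and 13.9% were higher in NCI-H1373, and 17.8% and 15.1% lower. NCI-H1373 was higher at both times in HMGCS1 (0.86 and 1.91), NSDHL (1.25 and 1.38), EBP (1.22 and 1.32), FASN (1.41 and 1.33), ELOVL6 (1.72 and 1.11) and LPIN1 (1.0 and 1.13), as log2 differences. NCI-H647 was higher at both times in NPC1 (-1.64 and -0.90) and ACSS2 (-1.28 and -0.98). In 9 fits that left out 1 library or 1 replicate number, NSDHL and EBP kept their calls at both times. HMGCS1 lost its call in 5 at 6 h, MVD in 6 at 6 h, and NPC1, ACSS2 and TM7SF2 in 6 each at 24 h. MVD was also not called with the replicate block (-0.81, adjusted p = 0.0735). Without NCI-H647 DMSO 24 h replicate 2, NPC1, ACSS2, FASN, ELOVL6, MSMO1 and TM7SF2 were not called at 24 h. SCD, INSIG1, ELOVL6 and NPC1 also kept their calls at 6 h in all 9, as HMGCS1 and LPIN1 did at 24 h, and each remaining call was lost in 1 to 5 fits. At 6 h alone SCD and ACACA were called higher in NCI-H1373 and SQLE, MVD, SREBF2 and INSIG1 lower. At 24 h alone MVK and MSMO1 were called higher and TM7SF2, FADS1 and FADS2 lower. Whether the line difference itself changed with time was not tested. Of the 35 treated responses none differed between the lines at 6 h (0% of all genes) or at 24 h (0.47%). The nearest at 24 h was TM7SF2, with a response 1.41 ± 0.61 higher in NCI-H1373 (adjusted p = 0.435).

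Taken treatment by treatment, 21 calls were made for the members over the 24 groups against their DMSO, 12 higher and 9 lower, all at 24 h. At 6 h the share of all genes called was 0.312%, 0.0234% and 1.61% for RBN-2397 at 10, 30 and 300 nM in NCI-H1373, and 0.468%, 0.195% and 0% for RBN012337 at 3, 10 and 100 nM. In NCI-H647 it was 0.00676% at RBN-2397 10 and 300 nM and 0% in the other groups. In NCI-H1373 at 24 h RBN-2397 at 300 nM gave 7 called members (11.9% of all genes), CH25H among them with the limit given above, RBN012337 at 3 nM gave 5 (8.5%), RBN-2397 at 10 nM gave 3 (7.33%), RBN012337 at 10 nM gave 2 (2.68%), RBN-2397 at 30 nM gave 1 (2.16%) and RBN012337 at 100 nM gave none (0.195%). HMGCS1 was called in 5 of the 6 groups, which were all set against the same 3 DMSO libraries. Its level was 18.8 ± 5.20, 22.5 ± 4.46 and 22.7 ± 1.75 CPM (SD, n = 3) at 10, 30 and 300 nM RBN-2397. At 3, 10 and 100 nM RBN012337 it was 23.8 ± 6.71, 25.5 ± 5.02 and 36.8 ± 11.5, against 47.1 ± 15.8 in DMSO. SREBF1, called in 3 groups, held 13.7 ± 5.83, 7.76 ± 4.19 and 18.9 ± 3.35 CPM with RBN-2397, and 14.2 ± 6.63, 7.21 ± 0.956 and 5.12 ± 5.28 with RBN012337, against 3.33 ± 0.350 in DMSO. The HMGCS1 means were in rising order of dose with each compound, with overlapping SDs, and no test of dose was passed. The SREBF1 means with RBN-2397 were not in order of dose. In NCI-H647 FASN was called at RBN-2397 10 nM (1.8% of all genes), and FDPS and SQLE at 300 nM (3.38%). No member was called there at RBN-2397 30 nM (0.94%) or at RBN012337 3, 10 and 100 nM (0.676%, 0.176% and 0.101%). The single-treatment calls fell from 21 to 3 without the NCI-H1373 DMSO 24 h replicate 1, and none of those in NCI-H1373 remained. Without the NCI-H647 DMSO 24 h replicate 1 the total rose to 48. Shares of all genes called in these fits are not given here.

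**Figure D3:**
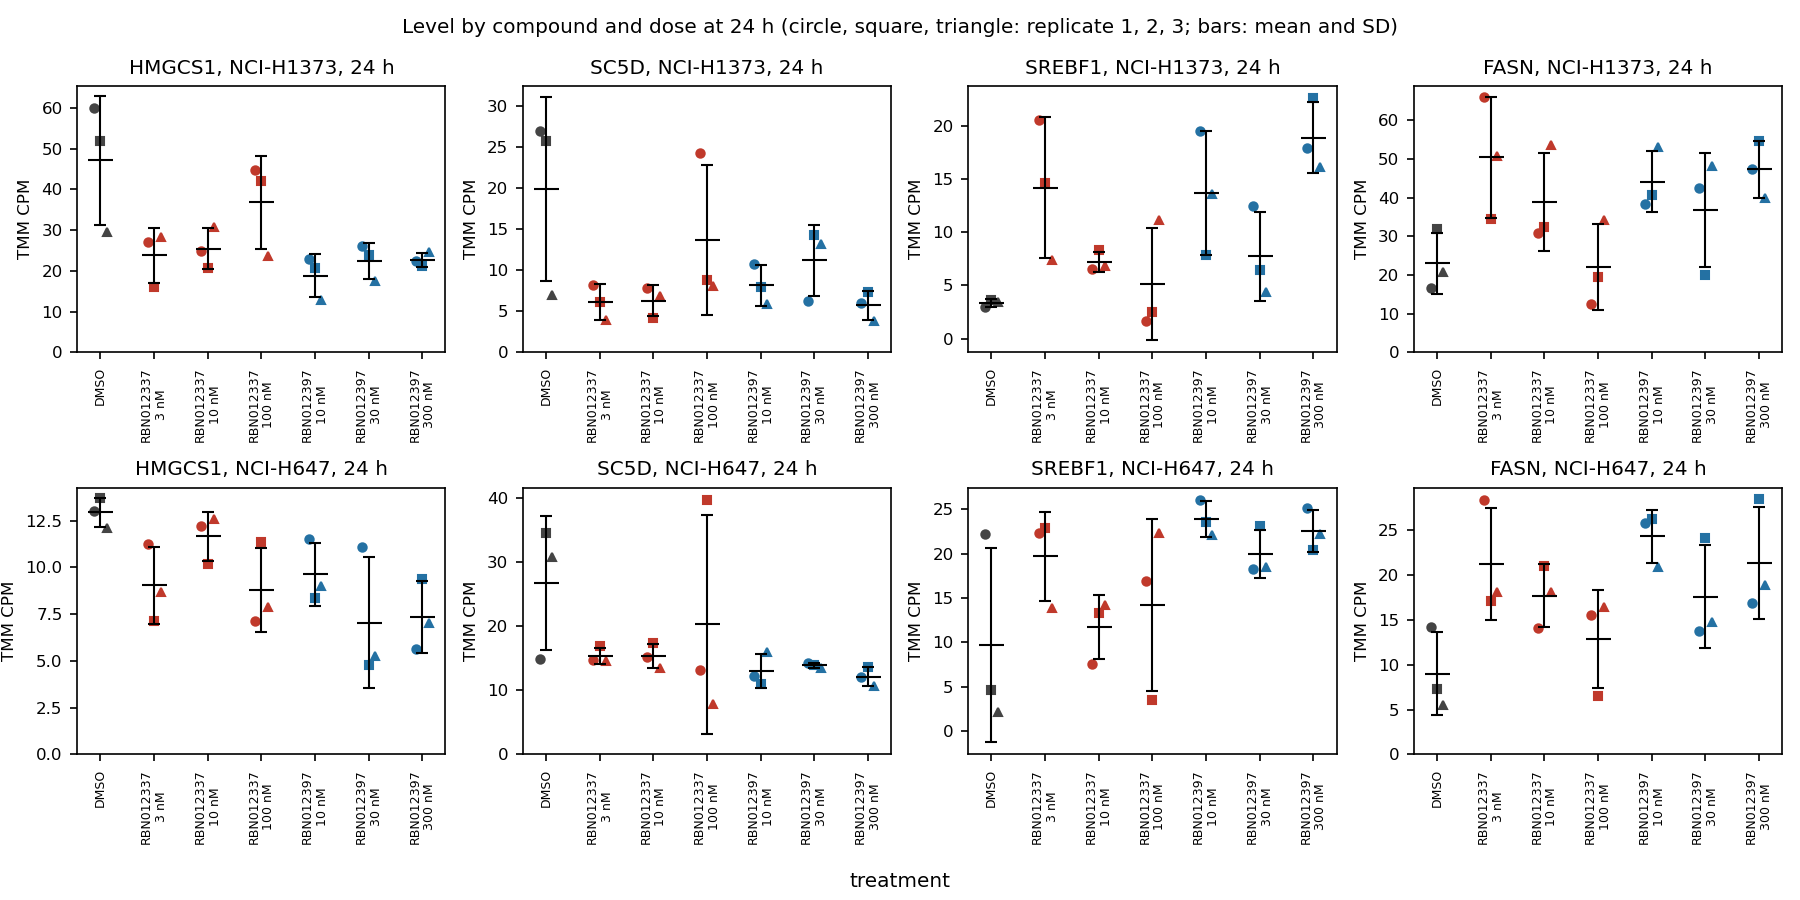
Level (CPM) of HMGCS1, SC5D, SREBF1 and FASN at 24 h in DMSO and in each compound and dose (horizontal axis), with NCI-H1373 in the upper and NCI-H647 in the lower row, points for replicates 1 to 3 and bars for the mean and SD. HMGCS1 in NCI-H1373 is lowest at RBN-2397 10 nM (18.8) and highest among treated groups at RBN012337 100 nM (36.8), where 2 of 3 replicates lie in the DMSO range.

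The compounds were compared at 10 nM, the dose they share, in 4 comparisons (each line and time), each over all genes. No member differed in any of them, and 0% of all genes did. The log2 difference of RBN-2397 from RBN012337 at 24 h in NCI-H1373 was -0.39 for HMGCS1 (2 standard errors on each side, -0.96 to 0.18), 0.39 for SC5D (-0.58 to 1.36) and 0.99 for SREBF1 (-0.09 to 2.06). In NCI-H647 it was 1.0 for SREBF1 (0.08 to 1.93) and 0.43 for FASN (-0.27 to 1.13). These intervals hold differences of the size of the responses themselves. The highest against the lowest dose, in 8 comparisons, gave no called member and, outside RBN012337 in NCI-H1373 at 24 h, no called gene (0%). RBN012337 in NCI-H1373 at 24 h (0.125% of all genes) came nearest, with 100 nM against 3 nM at -1.23 ± 0.39 for FASN and -0.92 ± 0.28 for PMVK, and a smallest adjusted p of 0.138.

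The mean level of each arm, taken as the mean log2(CPM + 1) of its genes in a library, summed up these patterns over the 28 groups. For the 18 sterol enzymes the treated mean differed from DMSO by -0.09 and -0.01 in NCI-H1373 at 6 and 24 h and by -0.18 and -0.10 in NCI-H647. The DMSO SD was 0.34, 0.39, 0.16 and 0.11. In NCI-H647 at 6 h 13 of 18 treated libraries were below the DMSO range, and at 24 h 9 were. For the 8 fatty acid genes the difference was 0.05 and 0.33 in NCI-H1373 and 0.13 and 0.41 in NCI-H647. The NCI-H1373 value at 24 h rests on DMSO at 4.22 ± 0.13 (SD, n = 3), with 14 of 18 treated libraries above it and 2 below it. The latter were replicates 1 and 2 of RBN012337 100 nM. In NCI-H647 the DMSO SD was 0.45, 5 treated libraries were above the range, and 1, replicate 2 of RBN012337 100 nM, was below it. Without CYP51A1, the sterol differences were -0.16, -0.05, -0.15 and -0.08 in the same order, and the DMSO SDs 0.20, 0.24, 0.16 and 0.13.

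**Figure D4:**
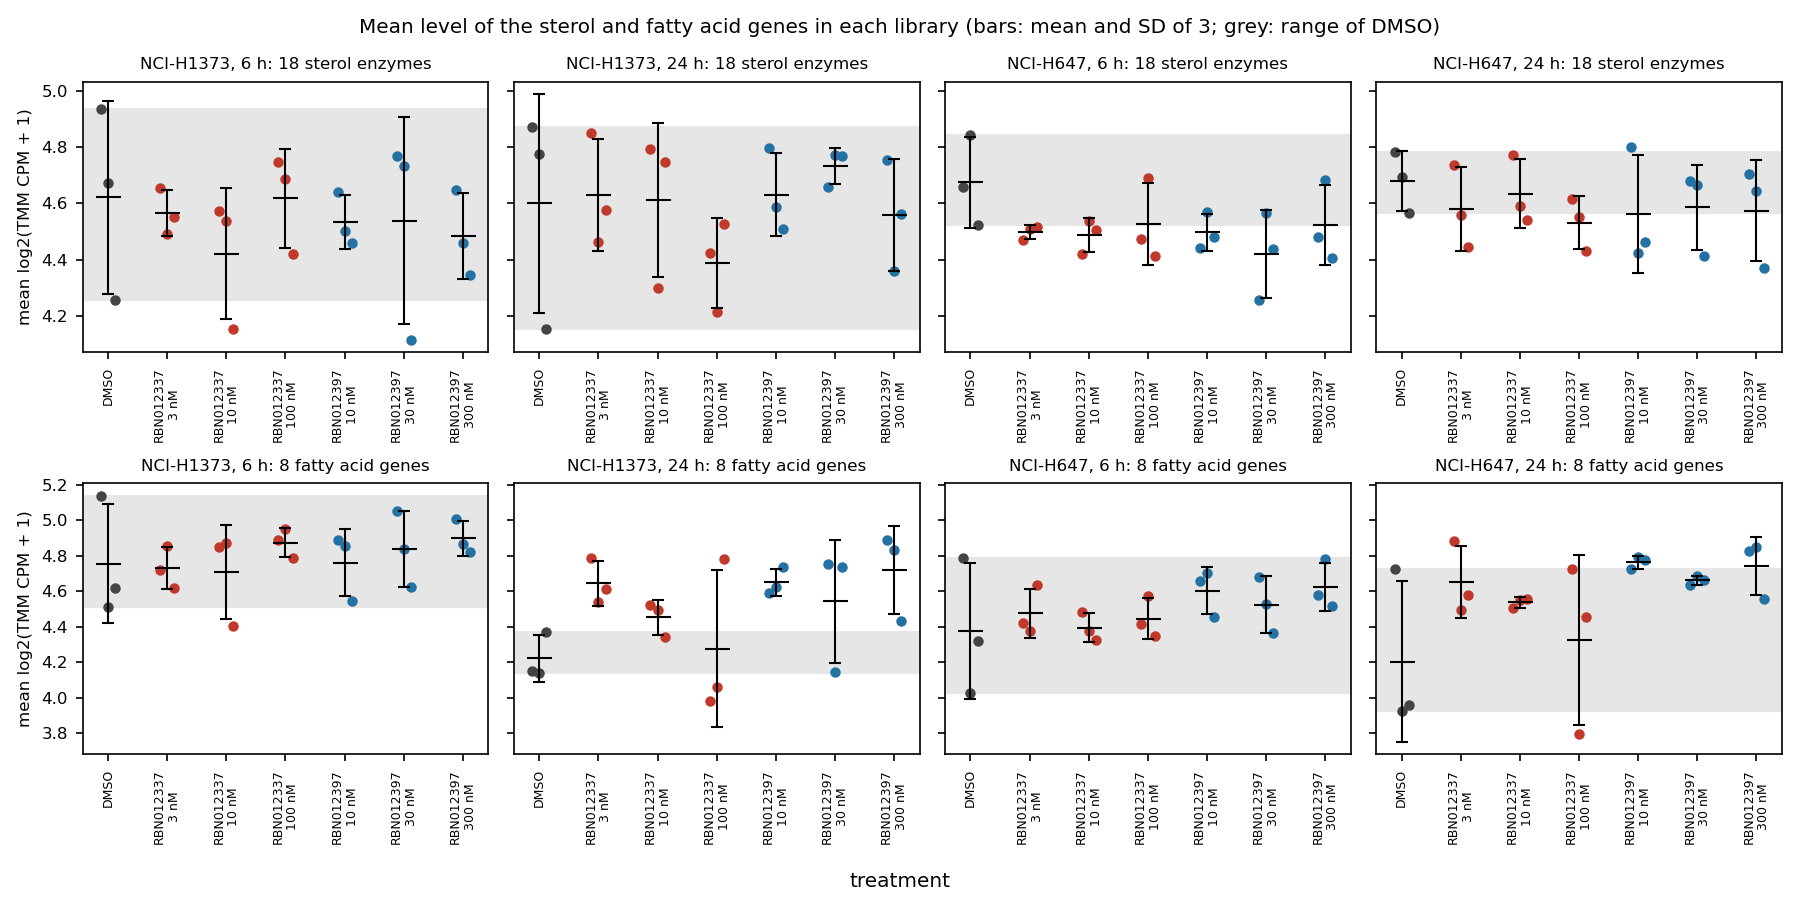
Mean log2(CPM + 1) over the 18 sterol enzymes (upper row) and the 8 fatty acid genes (lower row) in each library, by line and time (columns) and treatment (horizontal axis), with bars for the mean and SD of 3 libraries and a grey band for the DMSO range. Treated points of the fatty acid genes lie mostly above the band in NCI-H1373 at 24 h (14 of 18), and those of the sterol enzymes mostly below it in NCI-H647 at 6 h (13 of 18). The sterol bands of NCI-H1373 include the CYP51A1 zeros described above.

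Other genes of the same pathways were counted in the same comparisons. On the sterol side, 2 of 20 measured genes rose in NCI-H1373 at 24 h, TMEM97, a sterol-regulated membrane protein (1.02 ± 0.28, adjusted p = 0.0137), and MBTPS2, the site-2 protease that frees SREBP (1.12 ± 0.34, adjusted p = 0.0266), and none fell. In NCI-H647 1 of 22 fell, the site-1 protease MBTPS1 (-0.52 ± 0.15, adjusted p = 0.0401), with all 18 treated libraries (24.6 to 45.3 CPM) under the DMSO values of 50.1, 45.4 and 59.0. On the fatty acid side, ELOVL1, an elongase of saturated long chains, fell in both lines at 24 h (-0.97 ± 0.22, adjusted p = 0.0032, and -0.75 ± 0.18, adjusted p = 0.0106). The acyl-CoA synthetase ACSL1 fell in NCI-H1373 by 2.49 ± 0.59 on the log2 scale, and ACSL3 fell there at 6 h by 0.58 ± 0.14. GPAM, which starts glycerolipid synthesis, rose in NCI-H647 by 0.98 ± 0.19 (adjusted p = 0.00276), from 20.7, 16.0 and 13.2 CPM to 20.3 to 42.1. Its response at 24 h was lower in NCI-H1373 than in NCI-H647 by a log2 difference of -1.50 ± 0.32 (adjusted p = 0.0142). The fatty acid side thus had 2 of 19 called in NCI-H1373 and 2 of 21 in NCI-H647 at 24 h, and the sterol side 2 of 20 and 1 of 22, beside 12.1% and 4.98% of all genes. At 6 h it was 1 of 19 and 0 of 21, and 0 of 20 and 0 of 22 on the sterol side, beside 1.16% and 0.0135%. These other genes were not refitted without single libraries.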

How the data were processed

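RNA in 84 libraries from NCI-H1373 and NCI-H647 was profiled by 3′ digital gene expression sequencing, in 28 groups of 3 libraries. The authors deposited estimated counts per gene made with Salmon against hg38, per the submitters' processing notes; how molecular identifiers and strand were handled is not given in the sources used here. Of the nonzero values 49.4% were not whole, and all were rounded. A 3′ count per gene does not grow with transcript length, and few counts limit the precision of low genes in the 21 shallow NCI-H1373 libraries; intervals from counts would cover counting error only. Groups came from the sample labels. The 35 members, the lists of other pathway genes and the tests were chosen with earlier results of these data known.

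Each line was fitted alone (42 libraries) with edgeR 4.0.16 in R 4.3.3: filterByExpr (12832 genes in NCI-H1373, 14789 in NCI-H647), TMM factors, a robust quasi-likelihood fit with 1 mean per group, and Benjamini-Hochberg adjustment over all genes within a comparison, with a threshold of 0.05. A fit of all 84 libraries (16177 genes) compared the lines. A standard error is the absolute log2 change divided by the root of the F statistic. The test was tried on simulated data. CPM were computed with TMM factors over all libraries, and scores are means of log2(CPM + 1). Of 84 replicate pairs none was alike within sampling noise (chi-square per degree of freedom 3.90 to 44.1). Every member is accounted for; those past the threshold in a treated mean, a difference of times or lines, or at least 3 of 6 single treatments of a line and time have their values by library, other pathway genes up to the 4 smallest adjusted p. Alternatives were DESeq2's size factors, no filter, a replicate block, DESeq2 1.42.0, leaving out each library, and, chosen after seeing the data, leaving out RBN012337 100 nM, comparing treated libraries between times, and summing or leaving out CYP51A1. Gene positions are from GENCODE 29 (hg38).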

Additional observations from a re-analysis of the deposited data

How the results depend on the processing

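Counts of called members are given for the alternatives that moved them by over 1.5 times, and the cause of each shift was not tested. The shares of all genes called under the same settings are not given in this section. These counts therefore do not show whether the members moved apart from other genes. Without RBN012337 100 nM, NCI-H1373 at 24 h gave 8 called members in place of 5, CH25H included in each. With no filter on low counts, NCI-H647 at 6 h gave 1 in place of 0, its DMSO libraries between times gave 2 in place of 1, the single treatments gave 39 in place of 21, and the highest against the lowest dose gave 3 in place of 0. With DESeq2 the single treatments gave 34, and the change of response with time in NCI-H1373 gave 1 in place of 0. The replicate numbers fell short of pairing the libraries under a set rule, which needs every same-number pair to have a correlation of deviations over 0.1. In NCI-H1373 58 and 47 of 63 such pairs were over 0.1 at 6 and 24 h, and in NCI-H647 41 of 63 at each time. In the same order the medians were 0.27, 0.17, 0.13 and 0.15, against -0.17, -0.11, -0.07 and -0.07 for other pairs. In each set 20 or 21 of 21 libraries correlated best with their own number. By the data, not the design, same-numbered libraries appear to share something, and the main fits leave the replicate number out. With the replicate block the single treatments gave 47, NCI-H1373 DMSO between times 10 in place of 4, its change of response 2, and the highest against the lowest dose 3. The 24 h treated means, which moved less, gave 7 members in each line with this block. Leaving out 1 library, the treated mean gave 0 to 1 members in NCI-H1373 at 6 h and 0 (without DMSO replicate 1) to 9 (without DMSO replicate 3) at 24 h. In NCI-H647 it gave 0 to 3 at 6 h and 0 (without DMSO replicate 2) to 9 (without DMSO replicate 1) at 24 h. DMSO between times gave 0 to 7 and 0 to 4, the change of response 0 to 4 and 0 to 2, the lines 11 to 16 at 6 h and 7 to 14 at 24 h, single treatments 3 to 48, and the highest against the lowest dose 0 to 8. The compounds at 10 nM and the line difference of response gave 0 in each. Sterol score differences ranged from -0.28 to 0.06 and -0.23 to 0.13 in NCI-H1373 at 6 and 24 h, and from -0.26 to -0.10 and -0.16 to -0.05 in NCI-H647. Fatty acid score differences ranged from -0.08 to 0.24 and 0.29 to 0.40, and from -0.04 to 0.34 and 0.27 to 0.67. No alternative reversed a called value. The shallowest DMSO library and 3 libraries per group limit what low genes can show.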
